A study of Homo sapiens with 6 samples.

Results

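FOS, FOSB, FOSL1, FOSL2, JUN, JUNB, JUND, EGR1, IER2 and IER3 were examined in tumors of PC-3, a human prostate cancer cell line that grows without androgen. These 10 genes, chosen by name as the subunits of the transcription factor AP-1 and its neighbors among the immediate early genes, were matched by symbol in a table of 24000 gene entries. The symbols matched 15 entries, of which 10 lie on the main chromosomes. The 5 others are copies of IER3 on alternative haplotypes of chromosome 6 and were listed at 0 in every tumor. How reads that match several of these copies were assigned is not given in the sources used here, so the level of IER3 is less certain than that of the other genes.

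PC-3 tumors were grown in nude mice, which lack mature T cells, and 3 tumors came from mice given vehicle (Vehicle) and 3 from mice given an extract of the herb *Wedelia chinensis* (WCE). The labels give a treatment of 10 weeks for all 6 tumors, with no dose and no age of the hosts. The paper describes PC-3 cells that carried a luciferase reporter for imaging, implanted in the prostate of male mice, and WCE given by mouth. It gives more than 1 daily dose and more than 1 duration. Libraries were strand-specific and made from polyadenylated RNA, and the values are FPKM (fragments per kilobase of transcript, scaled to library size), which are set per length and can be compared between genes.

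AP-1 is a dimer of a JUN family protein with another JUN protein, a FOS family protein or a related basic leucine zipper protein, and it binds short DNA elements near genes of growth, invasion and inflammation. Many of its subunits are immediate early genes, which growth factors and stress switch on within minutes through MAP kinases, without new protein synthesis. In carcinoma cells the subunit FOSL1 is often kept at a high level by RAS and MAP kinase signaling, while FOS is typically made in short pulses.

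The tumors carried epithelial keratins, with mean FPKM of 228 for KRT8, 292 for KRT18 and 535 for KRT19 over the 6 tumors. The prostate secretory genes KLK2 and KLK3 were listed at 0 in every tumor. The absolute depth of the libraries is unknown. Relative to Vehicle replicate 3 at 100%, WCE replicate 1 had a depth of 25.0% and the other 4 tumors 64.8% to 85.2%. The first 2 of these libraries were nearly identical, with a median absolute log2 difference of 0.0276 in 1915 entries whose mean FPKM reached 50, against 0.095 to 0.247 for the other 14 pairs. Of all 24000 entries, 0 were above 0 in WCE replicate 1 and at 0 in Vehicle replicate 3, and 1419 were the reverse. In every other pair, at least 329 entries were above 0 in only 1 tumor, in each direction. Whether the 2 come from 1 library was not tested. Because they carry different labels they were kept as 2 tumors. The comparisons of the genes named are also given for the other 4 tumors.

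These 2 libraries also matched in the 10 genes. WCE replicate 1 differed from Vehicle replicate 3 by -0.15% for IER3, by 0.235% for FOSL1, by 0.89% for JUN and by 1.07% for IER2. The widest gaps were in low genes, at -12.6% for FOSB, -11.7% for FOS and 11.2% for EGR1. Wherever the groups are said to overlap or not, 1 tumor of each group is therefore nearly the same measurement.

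The promoters of these genes hold DNA elements that are known from their regulation, and 4 short stretches are shown because each carries such an element in an AP-1 or immediate early gene. In RefSeq on build GRCh38.p14, 8 of the 10 genes were matched, and FOSL1 and IER3 were not. Sequences cover the 250 bases before and 50 after the start of each matched gene. They are written 5′ to 3′ on the strand of the gene, with the element in capitals. The stretch of EGR1 is chr5:138465364-138465415 on the plus strand, with a pair of CArG boxes, the element bound by the serum response factor SRF, which begin at -105 and -83 from the start. That of JUN is chr1:58784097-58784124 on the minus strand with TGACATCA, a variant AP-1 element, at -67. That of JUND is chr19:18281805-18281832 on the minus strand with TGACGTCA, the cyclic AMP response element, at -200. That of FOSL2 is chr2:28392852-28392878 on the plus strand with TGACTCA, the AP-1 consensus element, at 5 bases into the gene.
EGR1: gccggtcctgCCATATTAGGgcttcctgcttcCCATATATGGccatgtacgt
JUN: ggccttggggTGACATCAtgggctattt
JUND: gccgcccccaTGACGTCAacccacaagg
FOSL2: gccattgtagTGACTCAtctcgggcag

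On either strand, TGACTCA was in 4.95% of 35116 promoters of the same length, TGACGTCA in 1.85%, TGACATCA in 2.61% and a CArG box in 1.29%, and each was in 1 of the 8 genes. TATAAA was in 11.5% of promoters and in FOS, FOSB and JUNB, where it began at -33, -30 and -31. CCAAT was in 34.6% of promoters and in JUN, JUNB and JUND, at -87, -67 and -74. The EGR element GCGTGGGCG, in 0.795% of promoters, and the kappaB motif, in 7.73%, were in 0 of the 8. The promoters of IER3 and FOSL1 were not among these 8 and were not searched. A match describes letters in this window, and so does the lack of one.

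FOSL1 stood at the top of the 10 genes and FOSB at the bottom. Mean FPKM over the 6 tumors was 221 for FOSL1, 201 for IER3, 121 for IER2, 41.9 for JUNB, 40.7 for JUN, 15.8 for JUND, 9.66 for FOSL2, 5.27 for FOS, 1.28 for EGR1 and 1.06 for FOSB. Among all 24000 entries FOSL1 ranked 403, IER3 436 and FOSB 12286. Neighbors in this order whose ranges overlapped were FOSL1 and IER3, JUNB and JUN, and EGR1 and FOSB. The other neighbors kept their order in 6 of 6 tumors, although 2 gaps were narrow. The lowest FPKM of JUND was 11.584 and the highest of FOSL2 11.567, and the lowest of IER3 was 146 and the highest of IER2 141.

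**Figure D1:**
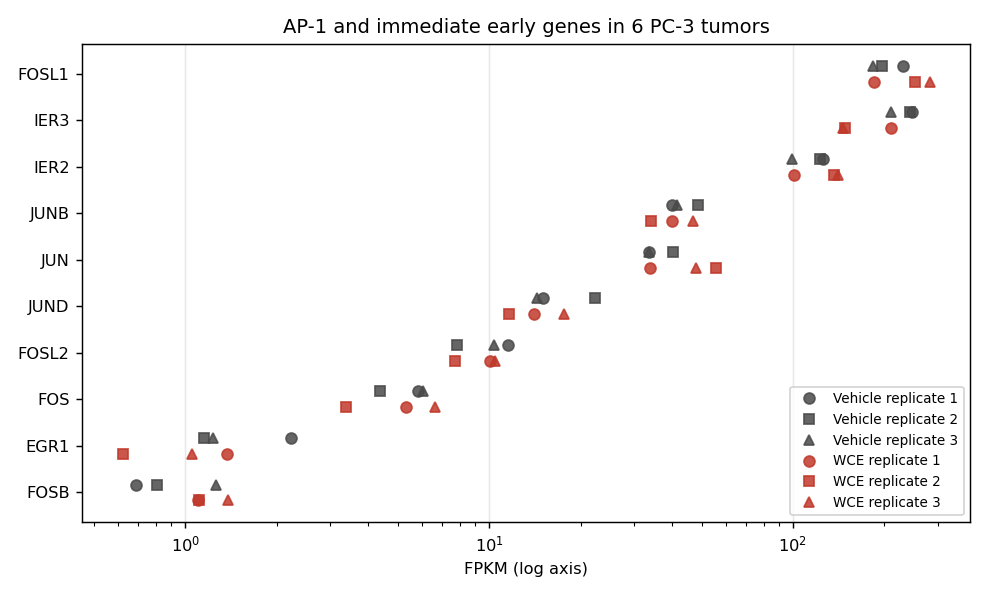
FPKM (log axis) of each gene in each of the 6 tumors, with Vehicle tumors in gray and WCE tumors in red and a marker shape for each replicate number. The genes run from FOSL1 at 184 to 283 FPKM down to FOSB at 0.689 to 1.38, and the red and gray points of IER3 are the only ones that do not overlap.

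No difference between WCE and Vehicle in the 10 genes passed the adjusted test, and IER3 came nearest. In limma on log2(FPKM + 1) over 13287 entries whose mean FPKM reached 0.5, all 10 genes were tested and 0 had an adjusted p under 0.05 (Benjamini-Hochberg), beside 1 of all entries, or 0.00753%. At an unadjusted p under 0.05 there was 1 gene of the 10, IER3, beside 7.1% of all entries. Groups that did not overlap were found for 1 of the 10, again IER3, beside 12.8% of all entries. A count of 1 in 10 is near both of these shares. The median log2 fold change of the 10 was -0.08, with 4 higher and 6 lower in WCE, and that of all entries was -0.0063. The limma p-values set the difference between groups against the spread between these tumors, with a variance that also draws on the other entries. They treat the 6 tumors as independent, which the nearly identical pair may not be. With 3 against 3 an exact permutation test of a single gene cannot go below 0.1.

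Without the nearly identical pair, 2 Vehicle and 2 WCE tumors remained. In that limma fit, 0 of the 10 genes passed the adjusted threshold, beside 0.0376% of all entries. Unadjusted p was under 0.05 for 2 genes, IER3 and JUN, beside 18.4% of all entries. The groups did not overlap for 6 genes, beside 53.5% of all entries. FOSB, FOSL1, JUN and IER2 were the higher ones in WCE and EGR1 and IER3 the lower ones.

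**Figure D2:**
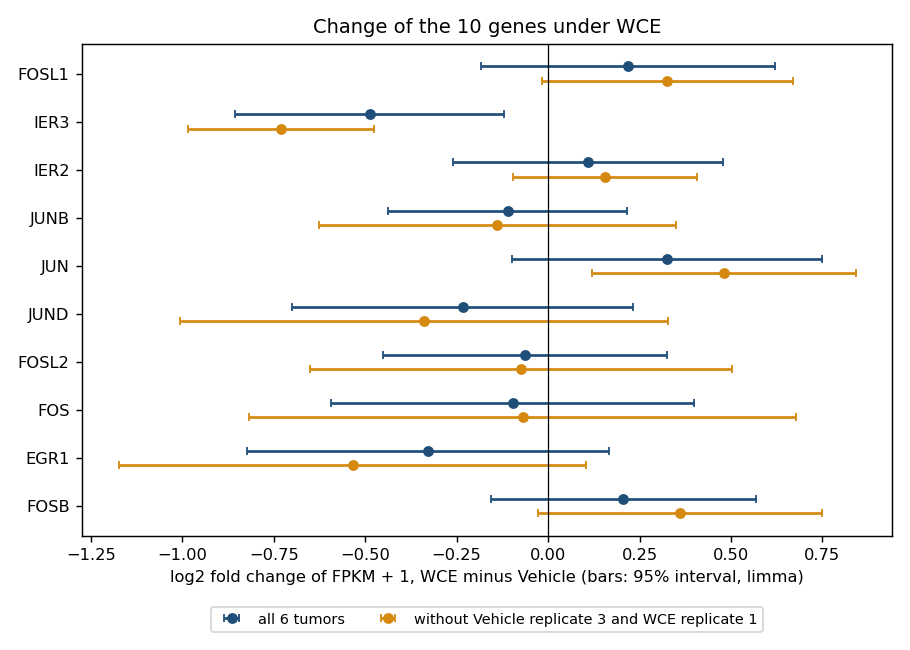
Log2 fold change (WCE minus Vehicle, on the log2(FPKM + 1) scale) of each gene with its 95% interval from limma, for all 6 tumors in blue and for 4 tumors without Vehicle replicate 3 and WCE replicate 1 in orange. In all 6 tumors the interval of IER3, from -0.86 to -0.12, is the one that leaves out 0, and in 4 tumors those of IER3 and JUN do.

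FOSL1 encodes FRA-1, an AP-1 subunit without a strong activation domain of its own that is linked to invasion. It lies at 65659692 to 65667997 on chromosome 11 of hg19, the human build named in the submitters' notes. FPKM was 230, 196 and 184 in the Vehicle tumors and 184, 251 and 283 in the WCE tumors. WCE replicates 2 and 3 were above every Vehicle tumor, and WCE replicate 1 lay within the Vehicle range. Means were 203 ± 23.9 and 239 ± 50.2 (SD, n = 3), and limma gave a log2 fold change of 0.22 (SE 0.17, 95% interval -0.18 to 0.62, adjusted p = 0.683). In 4 tumors it was 0.33 (SE 0.13, adjusted p = 0.286).

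FOS, the classical partner of JUN, lies at 75745481 to 75748937 on chromosome 14. FPKM was 5.83, 4.38 and 6.05 in Vehicle and 5.34, 3.39 and 6.61 in WCE. Both the lowest and the highest tumor were WCE-treated, and the groups overlapped. The log2 fold change was -0.10 (SE 0.21, 95% interval -0.59 to 0.40, limma adjusted p = 0.897). With array weights, which let limma trust some tumors more than others, it was 0.14, so no direction is given for FOS. In 4 tumors it was -0.07 (SE 0.29, adjusted p = 0.916).

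FOSB, at 45971253 to 45978437 on chromosome 19, encodes another FOS family subunit and was the lowest of the 10. FPKM was 0.689, 0.805 and 1.26 in Vehicle and 1.10, 1.11 and 1.38 in WCE. All 3 WCE tumors lay above Vehicle replicates 1 and 2, while Vehicle replicate 3 lay inside the WCE range. The log2 fold change was 0.21 (SE 0.16, 95% interval -0.16 to 0.57, limma adjusted p = 0.672). In 4 tumors it was 0.36 (SE 0.15, adjusted p = 0.293). Because 1 is added before the logarithm, this understates the change of a gene near 1 FPKM.

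FOSL2, which encodes FRA-2, lies at 28615779 to 28637516 on chromosome 2. FPKM ranged from 7.82 to 11.6 in Vehicle and from 7.74 to 10.4 in WCE, and the groups overlapped over nearly their whole ranges. Limma gave a log2 fold change of -0.06 (SE 0.17, 95% interval -0.45 to 0.32, adjusted p = 0.920), and -0.07 in 4 tumors (SE 0.23, adjusted p = 0.882).

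FOSL1 made up most of the FOS family message in every tumor. Summed FPKM of the 4 genes was 248, 209 and 202 in Vehicle and 201, 263 and 301 in WCE, and FOSL1 held 91.2% to 95.4% of it. Its share was 92.6% ± 1.28 in Vehicle and 93.7% ± 1.79 in WCE (SD, n = 3), a difference smaller than either spread. FOSL2 held 2.94% to 5.14%, FOS 1.29% to 3.00% and FOSB 0.278% to 0.627%.

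JUN, the founding AP-1 subunit and a strong activator, lies at 59246463 to 59249785 on chromosome 1. FPKM was 33.5, 40.1 and 33.5 in Vehicle and 33.8, 55.6 and 47.8 in WCE. As for FOSL1, WCE replicates 2 and 3 exceeded all Vehicle tumors and WCE replicate 1 did not. Means were 35.7 ± 3.85 and 45.7 ± 11.1 (SD, n = 3), with a log2 fold change of 0.32 (SE 0.18, 95% interval -0.10 to 0.75, limma adjusted p = 0.623). In 4 tumors it was 0.48 (SE 0.14, 95% interval 0.12 to 0.84, limma adjusted p = 0.210).

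JUNB and JUND, subunits that can restrain JUN, ran opposite to it in a single tumor. On the log2(FPKM + 1) scale, both lay on the same side of the Vehicle mean as JUN in every tumor except WCE replicate 2. There the difference from that mean was 0.63 for JUN, -0.34 for JUNB and -0.51 for JUND. JUNB lies at 12902310 to 12904125 on chromosome 19, and its FPKM was 39.9, 48.9 and 41.6 in Vehicle and 39.97, 34.1 and 47.0 in WCE. JUND, at 18390563 to 18392432 on the same chromosome, had 15.1, 22.3 and 14.3 in Vehicle and 14.1, 11.6 and 17.6 in WCE. For both genes WCE replicate 2 was the lowest tumor and Vehicle replicate 2 the highest, and the groups overlapped. The log2 fold change was -0.11 for JUNB (SE 0.14, 95% interval -0.44 to 0.22, limma adjusted p = 0.802), and -0.14 in 4 tumors (SE 0.19, adjusted p = 0.726). For JUND it was -0.23 (SE 0.20, 95% interval -0.70 to 0.23, limma adjusted p = 0.709), and -0.34 in 4 tumors (SE 0.26, adjusted p = 0.513).

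The makeup of the JUN family differed most in a single tumor. JUN held 37.8%, 36.1% and 37.5% of the summed FPKM of the 3 genes in Vehicle and 38.5%, 54.9% and 42.5% in WCE. The ratio of JUN to JUNB was 0.839, 0.821 and 0.805 in Vehicle and 0.845, 1.63 and 1.02 in WCE. The share and the ratio were thus higher in each WCE tumor than in any Vehicle tumor, by little in WCE replicate 1 and by most in WCE replicate 2. They were chosen with the gene values known and were not tested.

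**Figure D3:**
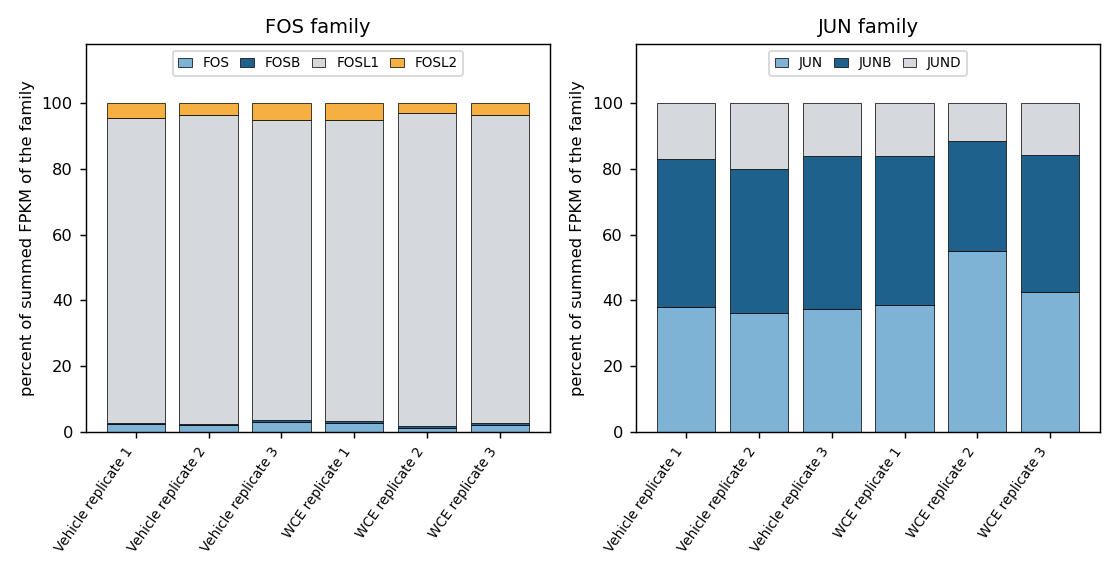
Percent of the summed FPKM of the FOS family (left) and the JUN family (right) held by each gene in each of the 6 tumors, as stacked bars. FOSL1 fills 91.2% to 95.4% of every FOS family bar, and the JUN segment of WCE replicate 2, at 54.9%, is the tallest of the JUN family.

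IER3, also called IEX-1, is an early response gene of stress and NF-κB signaling that affects cell survival, and it was the gene in which the groups were apart. It lies at 30710976 to 30712327 on chromosome 6. FPKM was 247, 244 and 210.2 in Vehicle and 209.9, 148 and 146 in WCE. Every WCE tumor was below every Vehicle tumor, but WCE replicate 1 was below Vehicle replicate 3, its near copy, by only 0.15%, and the order of these 2 turned under one of the scalings tried. Means were 234 ± 20.3 and 168 ± 36.1 (SD, n = 3). The log2 fold change was -0.49 (SE 0.16, 95% interval -0.86 to -0.12, limma p = 0.0161, adjusted p = 0.623), and the two-sided exact permutation test gave 0.1, the smallest it can give. The unadjusted p was above 0.05 when Vehicle replicate 2, or WCE replicate 2 or 3, was left out, with log2 fold changes of -0.46, -0.41 and -0.40. In 4 tumors the log2 fold change was -0.73 (SE 0.10, 95% interval -0.99 to -0.48, limma adjusted p = 0.173).

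IER2, a nuclear protein gene of the same early class, lies at 13261282 to 13265718 on chromosome 19. FPKM was 125, 123 and 99.5 in Vehicle and 101, 136 and 141 in WCE, so that the nearly identical pair held the lowest values of both groups. The fitted log2 fold change was 0.11 (SE 0.16, 95% interval -0.26 to 0.48, limma adjusted p = 0.832), and 0.16 in 4 tumors (SE 0.099, adjusted p = 0.432).

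EGR1, a zinc finger transcription factor induced by growth factors through SRF, lies at 137801181 to 137805004 on chromosome 5. FPKM was 2.23, 1.15 and 1.23 in Vehicle and 1.37, 0.621 and 1.05 in WCE. Vehicle replicate 1 was the highest tumor and WCE replicate 2 the lowest, and WCE replicate 1 lay above 2 Vehicle tumors. The log2 fold change was -0.33 (SE 0.21, 95% interval -0.82 to 0.17, limma adjusted p = 0.648), and -0.53 in 4 tumors (SE 0.25, adjusted p = 0.329). EGR1 varied most of the 10, with a highest tumor 3.60 times the lowest, against 1.42 times for IER2.

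The 2 WCE tumors outside the nearly identical pair differed from each other in several of these genes. WCE replicate 2 had the lowest FPKM of the 6 tumors for FOS, FOSL2, JUNB, JUND and EGR1 and the highest for JUN. WCE replicate 3 had the highest for FOS, FOSB, FOSL1 and IER2 and the lowest for IER3. The ratio of replicate 3 to replicate 2 was 1.95 for FOS, 1.69 for EGR1, 1.52 for JUND and 1.38 for JUNB, but 1.03 for IER2, 0.988 for IER3 and 0.859 for JUN. The ratio was closest to 1 for IER3 and IER2 and farthest from it for FOS and EGR1.

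**Figure D4:**
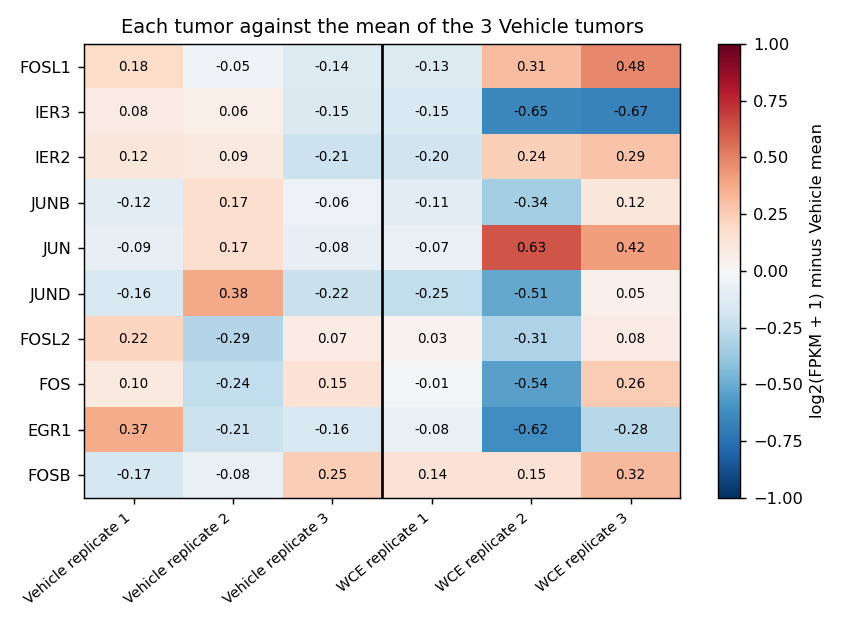
Difference of log2(FPKM + 1) in each tumor from the mean of the 3 Vehicle tumors, with genes as rows and tumors as columns and the value printed in each cell. WCE replicates 2 and 3 share low IER3 (-0.65 and -0.67) and high JUN (0.63 and 0.42), whereas for FOS they lie on opposite sides (-0.54 and 0.26).

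Correlation with FOS over the 6 tumors was ranked on log2(FPKM + 1) among 9239 entries whose mean FPKM reached 5. FSCN1, SSR4, GPX2 and BLVRB were picked from the top of this ranking, with Pearson r of 0.97, 0.97, 0.96 and 0.96. FOSL2 ranked 24 with r of 0.88, JUNB 886 with 0.50 and JUN 8324 with -0.56. These are descriptions over 6 points, of which 2 are the nearly identical pair. Because the top genes were chosen for their r among so many entries, a high r is no sign of shared regulation.

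Other basic leucine zipper genes that pair with AP-1 subunits showed no change past the test. Of 14 listed, 10 were tested, and 0 had an unadjusted p under 0.05 in limma, beside 7.1% of all entries. The median log2 fold change was 0.03. ATF3, a stress-induced repressor, had FPKM of 22.1, 24.1 and 20.8 in Vehicle and 20.4, 14.7 and 19.0 in WCE, with no overlap (log2 fold change -0.30, SE 0.14, limma adjusted p = 0.623). The gap between its groups lay between Vehicle replicate 3 and WCE replicate 1, the nearly identical pair. BATF2 had the largest difference, 0.52 (SE 0.28, limma adjusted p = 0.623), with overlapping groups. In 4 tumors the log2 fold change was -0.44 for ATF3 and 0.62 for BATF2 (adjusted p = 0.235 and 0.397), and 3 of the 10 genes had an unadjusted p under 0.05, beside the 18.4% of all entries.

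Among other immediate early genes, 26 of 30 were tested, and 9 were higher and 17 lower in WCE. Of all 13287 entries, 6459 were higher and 6828 lower. The median log2 fold change was -0.07, beside -0.0063 for all entries. Unadjusted p was under 0.05 for 1 in each direction, beside 7.1% of all entries. In the 4-tumor fit 3 of the 26 had such a p, beside 18.4% of all entries. MCL1, which protects cells from apoptosis, had FPKM of 99.9, 128 and 129 in Vehicle and 126, 209 and 192 in WCE (log2 fold change 0.54, SE 0.20, limma adjusted p = 0.623). PLK2, a stress-responsive kinase, had 49.6, 38.9 and 30.0 in Vehicle and 29.6, 25.7 and 26.3 in WCE (log2 fold change -0.50, SE 0.18, limma adjusted p = 0.623). In 4 tumors the log2 fold change was 0.82 for MCL1 and -0.74 for PLK2, each with an adjusted p of 0.174. MCL1 overlapped through WCE replicate 1, as JUN did, and PLK2 did not overlap, as IER3 did not. For PLK2 too, the gap lay between Vehicle replicate 3 and WCE replicate 1, the nearly identical pair.

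Of 19 kinases and SRF cofactors upstream of these genes, 18 were tested, with a median log2 fold change of -0.01. Only RPS6KA1, which encodes the ERK-activated kinase RSK1, had an unadjusted p under 0.05, beside 7.1% of all entries. Its FPKM was 26.2, 27.5 and 25.6 in Vehicle and 28.7, 35.7 and 32.1 in WCE (log2 fold change 0.27, SE 0.11, limma adjusted p = 0.623). The JNK2 gene MAPK9 had the next largest difference, -0.24 (SE 0.14, limma adjusted p = 0.623). NAB2, a corepressor that EGR1 induces and that then holds EGR1 in check, had 5.74, 6.21 and 8.662 in Vehicle and 8.668, 10.7 and 11.1 in WCE, with no overlap (log2 fold change 0.52, SE 0.16, limma adjusted p = 0.623). The narrow gap between the groups lay between Vehicle replicate 3 and WCE replicate 1, the nearly identical pair. NAB1, the paralog of NAB2, had a log2 fold change of 0.08 (SE 0.12, limma adjusted p = 0.846). In 4 tumors the log2 fold change was 0.77 for NAB2 (adjusted p = 0.173), 0.32 for RPS6KA1 (adjusted p = 0.231), -0.28 for MAPK9 (adjusted p = 0.338) and 0.09 for NAB1 (adjusted p = 0.776). There, 3 of the 18 kinases and SRF cofactors had an unadjusted p under 0.05, beside the 18.4% of all entries.

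Genes known as AP-1 targets showed no difference past the test. Of 15 listed, 14 were tested, and 0 had an unadjusted p under 0.05 in limma, beside 7.1% of all entries. In WCE, 2 were higher and 12 lower, beside 6459 higher and 6828 lower of all 13287 entries. The targets are not all separate observations, since MMP1 and MMP3 are listed at the same locus and were both highest in the nearly identical pair. The median log2 fold change was -0.12, beside -0.0063 for all entries. The median of the targets rested on single tumors, and it was 0.031 when Vehicle replicate 3 was left out and -0.29 when Vehicle replicate 1 was. Leaving out WCE replicate 1, 2 or 3 gave -0.30, 0.0018 and -0.036. MMP13, a collagenase, had FPKM of 11.2, 26.6 and 22.9 in Vehicle and 23.7, 7.87 and 8.73 in WCE (log2 fold change -0.64, SE 0.44, limma adjusted p = 0.659). KRT17, a stress keratin, had -0.71 (SE 0.63, limma adjusted p = 0.722), with WCE replicate 2 at 19.9 and WCE replicate 1 at 145. In 4 tumors the log2 fold change was -0.98 for MMP13 and -1.08 for KRT17 (adjusted p = 0.270 and 0.365). There, 4 of the 14 targets had an unadjusted p under 0.05, all lower, beside the 18.4% of all entries.

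**Figure D5:**
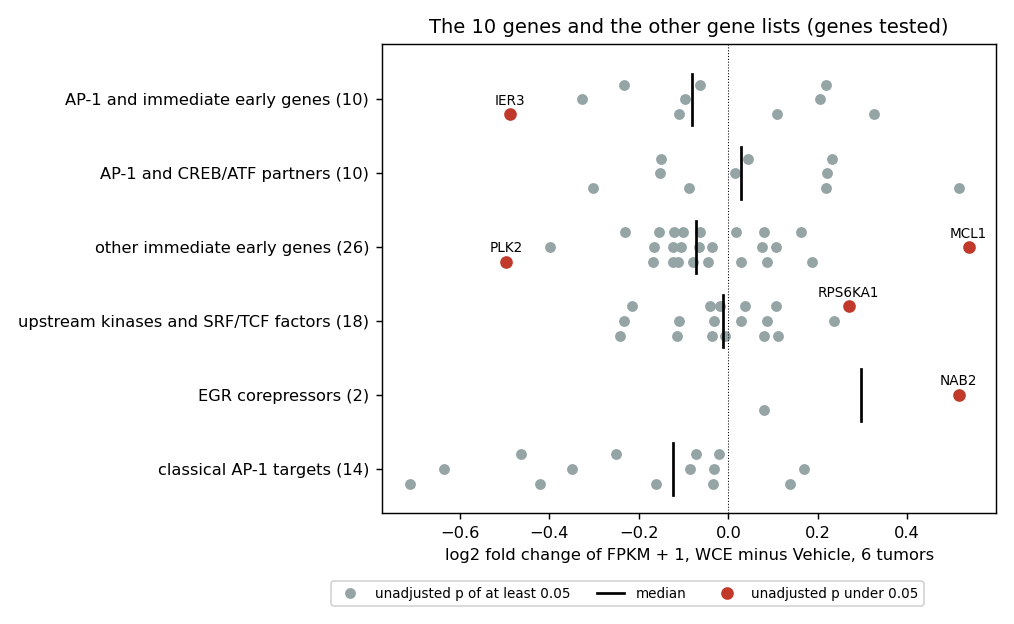
Log2 fold change (WCE minus Vehicle, log2(FPKM + 1), 6 tumors) of each tested gene in the 10 AP-1 and immediate early genes and 5 other lists, with the median of each list as a bar and genes with an unadjusted limma p under 0.05 in red and named. The medians lie between -0.12 and 0.03 except for the 2 EGR corepressors. In all, 5 genes are red, and 7.1% of all entries had such a p.

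Genes of tissue stress and of other cells also differed between these tumors, and their part in the results was not tested. The 8 heat shock genes summed to 2238 to 2981 FPKM in Vehicle and 2201 to 2296 in WCE. Of these 8, 1 had an unadjusted p under 0.05, beside 7.1% of all entries, namely HSPH1 (log2 fold change -0.70, SE 0.27, limma adjusted p = 0.623). The 10 hypoxia genes summed to 1386 to 2079 and 1427 to 2091, with 0 under that threshold in limma. HSPA1B, a further heat shock gene, had a log2 fold change of -0.24, and the hypoxia genes CA9 and SLC2A1 had 0.47 and 0.44, with overlapping groups in each. In 4 tumors the log2 fold change was -1.09 for HSPH1, -0.36 for HSPA1B, 0.62 for CA9 and 0.64 for SLC2A1. In tumor pieces, fewer cells of a type and less RNA per cell cannot be told apart.

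Of the host and stromal markers, the 6 endothelial genes summed to 1.20 to 3.37 FPKM in Vehicle and 3.21 to 7.596 in WCE, with 2 of them tested and EMCN at 0 throughout. KDR, a receptor of vascular growth factor, had FPKM of 0.216, 0.247 and 0.529 in Vehicle and 0.559, 1.59 and 5.12 in WCE (log2 fold change 1.14, SE 0.44, limma adjusted p = 0.623). Its log2 fold change was 1.69 in 4 tumors (adjusted p = 0.188). PECAM1, the other one tested, had 0.860, 2.95 and 2.605 in Vehicle and 2.48, 2.05 and 2.37 in WCE. Its groups overlapped (log2 fold change 0.14, SE 0.27, limma adjusted p = 0.877, and 0.24 in 4 tumors). CDH5, VWF and TEK had mean FPKM of 0.034, 0.051 and 0.046. The sum of 8 myeloid genes was 366.9 to 1596 and 582.4 to 1594, most of it S100A8 and S100A9, which epithelial cells also express. The leukocyte gene PTPRC had a mean FPKM of 0.362, and CD68 had 36.3. The 3 tested, S100A8, S100A9 and CD68, had log2 fold changes above 0, with overlapping groups in each. That of CD68 was 0.37 (SE 0.16, limma adjusted p = 0.623). In 4 tumors it was 0.57 (adjusted p = 0.182), and the groups of CD68 did not overlap. The 7 fibroblast genes summed to 44.1 to 58.8 and 13.95 to 58.4, most of it COL1A1 and COL3A1, at mean FPKM of 35.7 and 7.83. The lowest sum was that of WCE replicate 2, where COL1A1 was 10.45, against 42.8 and 45.7 in the other WCE tumors. DCN had a mean of 0.097. The log2 fold change was -0.85 for LUM (SE 0.32, limma adjusted p = 0.623), -0.51 for COL3A1, -0.44 for COL1A1 and 0.11 for ACTA2, with overlapping groups in each. In 4 tumors it was -1.31 for LUM (adjusted p = 0.173), -0.79 for COL3A1, -0.64 for COL1A1 and 0.14 for ACTA2. The 6 genes listed for PC-3 cells themselves, 5 epithelial genes and the mesenchymal gene VIM, summed to 1479 to 1858 and 1642 to 1783. Within that sum the genes differed in direction. EPCAM and CDH1, which encode cell adhesion proteins, had log2 fold changes of -0.73 (SE 0.21) and -0.47 (SE 0.17) and VIM 0.41 (SE 0.19), each with a limma adjusted p of 0.623. In 4 tumors they were -1.08, -0.68 and 0.63 (adjusted p = 0.173, 0.173 and 0.230). Whether mouse reads were removed is not given in the sources used here.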

How the data were processed

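RNA was taken from 3 Vehicle and 3 WCE tumors, grouped by the sample labels. The authors deposited FPKM values per gene entry in a Cufflinks layout, and all 6 columns were used. The submitters' processing notes name TopHat2 2.0.13, Cufflinks, hg19 and mm10, without saying what each was used for. Loci are those of the table, counted from 1. The 13287 entries whose mean FPKM reached 0.5 were analyzed as log2(FPKM + 1) by limma 3.58.1 (R 4.3.3), using a mean-variance trend, two-sided tests, Benjamini-Hochberg adjustment and a threshold of 0.05. The fit was tried on simulated data with independent tumors, a setting that leaves out the nearly identical pair and so cannot show how the fit handles it. Single genes were also compared by an exact permutation test. The table holds no read counts, so no counting intervals are given, and relative depth was taken from the commonest ratio of low FPKM values. Tables and figures were made in Python 3.11.15 with numpy 2.4.6, pandas 2.3.3 and matplotlib 3.10.9.

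The 10 genes and the other lists were chosen with earlier results of these data known. From each other list, genes with an unadjusted p under 0.05 were named, up to 5, or the 2 with the largest change where fewer than 2 had one. The 5 entries most like FOS were to be named too, of which 1 is not reported here. Alternatives changed the pseudocount (0.1 or 0.01), the filter (none, or a mean FPKM of 2), the scaling, the trend and the moderation, added array weights or a replicate block, or left out each tumor or the nearly identical pair. Same-numbered tumors are not stated to belong together, and their deviations from the group means correlated at -0.241, 0.16 and -0.0931, so they were not treated as pairs.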

Additional observations from a re-analysis of the deposited data

How the results depend on the processing

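None of the 18 alternatives gave any of the 10 genes an adjusted p under 0.05 in limma. The number of genes with an unadjusted p under 0.05, 1 in the reported fit, was 0 in the unmoderated test, 3 with array weights (IER3, JUN and FOSL1), 2 without the nearly identical pair and 0 to 3 with 1 tumor left out. It was 3 without WCE replicate 1, and 0 when Vehicle replicate 2 or either of the WCE replicates 2 and 3 was left out. The share of all entries under that p moved with it, from 7.1% as reported to 4.46% in the unmoderated test, 24.1% with array weights, 18.4% without the pair, 15.3% without WCE replicate 1 and 1.65% to 2.61% in the fits with 0. The number whose groups did not overlap, 1 as reported, was 0 after upper-quartile scaling, 6 without the nearly identical pair and 1 to 5 with 1 tumor left out. It was 5 without WCE replicate 1 and 2 when WCE replicate 3 or either of the Vehicle replicates 2 and 3 was left out. Of all entries, 12.8% did not overlap as reported and after upper-quartile scaling, 53.5% without the pair, and 37.8% without WCE replicate 1. The share was 33% when Vehicle replicate 3 was left out, 18.9% when Vehicle replicate 2 was and 17.3% when WCE replicate 3 was. With a replicate block, 1 gene had an unadjusted p under 0.05, again IER3, so the block changed no call.

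IER3 was lower in WCE in all 18 alternatives, with a log2 fold change between -0.73 and -0.40. Its unadjusted p was over 0.05 in 4 of them, namely the unmoderated test and the fits that left out Vehicle replicate 2, or WCE replicate 2 or 3. The signs of FOS, FOSL2 and JUNB were not stable. With array weights the log2 fold change of FOS was 0.14 and that of FOSL2 0.10, and with 1 tumor left out they ran from -0.27 to 0.12 for FOS, -0.21 to 0.058 for FOSL2 and -0.22 to 0.0021 for JUNB. The median of the 10 genes ran from -0.18 without WCE replicate 3 to 0.12 with array weights. The cause was not tested for any of these. The table holds no counts, so the counting precision of low genes such as FOSB and EGR1 was not measured.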
